A study of Drosophila melanogaster with 11 samples.

Results

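The Notch ligand Delta, the receptor Notch and the core proteins that act on them were followed at the RNA level in sorted stem cells and enteroblasts of the Drosophila midgut. The members were the 10 genes named Dl, neur, mib1, N, spdo, numb, kuz, Psn, Su(H) and H, out of 14595 genes in the deposited expression table, and each name matched a single row. They were picked by name and role and not by their values, but with earlier results of these data known. The study asked what the RNA binding protein gene spen does in intestinal stem cells (ISCs) and in enteroblasts (EBs), the daughter cells in which Notch is active. Diploid cells were sorted from female flies that were 5 days old and had been moved from 18 to 29 °C for 2 days. All flies carried esg>GAL4, tubGAL80.ts, UAS-RFP and nre-GFP, where nre-GFP is a reporter of Notch activity. ISCs were sorted as cells with RFP and EBs as cells with both RFP and GFP. The groups were WT-ISC (3 libraries) and WT-EB (2 libraries, replicates 1 and 3), which carried no further transgene, and SPEN-ISC (3 libraries) and SPEN-EB (3 libraries), which also carried UAS-spen RNAi. The esg driver is active in ISCs and EBs alike, so both cell types of a SPEN gut expressed the RNAi. The labels give no control RNAi. The EB gate was itself set on a Notch reporter, so a difference between ISC and EB libraries separates cells already chosen by Notch activity. The authors left out a second WT-EB library for its place in a principal component analysis, and the spread within WT-EB may therefore be too small.

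Notch signalling passes between neighbouring cells. The ligand Dl on a signalling cell must be internalised, with the help of the ubiquitin ligases Neur and Mib1, to activate the receptor N on the facing cell. The protease Kuz and the Psn-containing γ-secretase complex then cut N, and the freed intracellular part joins the DNA-binding protein Su(H), which in the absence of signal is held in a repressor complex by H. In the fly midgut, Dl is the usual marker of ISCs, and Dl from an ISC activates N in its daughter, which becomes an EB.

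Exon bin counts per library ranged from 28206027 to 31991452 (median 30152654), so depth differed little. The share of counts in genes with at least 3000 exon bases ranged from 1.45% to 7.36% across the 11 libraries, and genes at or above 1 FPKM (fragments scaled to exon length and library depth) numbered 4676 to 6838. The FPKM of the targeted gene spen was 0.255, 0.620 and 0.327 in WT-ISC and 2.17, 1.61 and 5.03 in the libraries labelled SPEN-ISC. It was 0.115 and 0.147 in WT-EB and 2.24, 0.920 and 0.936 in those labelled SPEN-EB, so total spen was higher in every RNAi library. Most of these counts lay in exon bin E014, the exon to which the hairpin of the RNAi line is directed, where hairpin and spen transcripts cannot be told apart in the summed counts. Bin E014 held 6, 101 and 39 counts in WT-ISC and 1088, 613 and 2160 in SPEN-ISC, and 7 and 12 in WT-EB and 720, 393 and 406 in SPEN-EB, so its counts ran with the labels in every library. Outside this bin, spen was at 4.27, 7.76 and 4.34 CPM (counts scaled to library depth) in WT-ISC and 4.62, 7.54 and 18.1 in SPEN-ISC. The corresponding values were 1.69 and 2.10 in WT-EB and 16.0, 2.89 and 3.58 in SPEN-EB, so these counts show no lower spen RNA in the RNAi libraries. The summed FPKM of 8 ISC and dividing cell markers, Dl and spdo among them, was 30.3 to 168 in WT-ISC, 35.3 to 189 in SPEN-ISC, 6.71 to 12.9 in WT-EB and 10.5 to 39.7 in SPEN-EB. The summed FPKM of 6 Notch-activated EB markers was not higher in EBs, at 1164 to 1707 in WT-ISC, 3163 to 5101 in SPEN-ISC, 1046 to 1075 in WT-EB and 2211 to 2868 in SPEN-EB. Among them E(spl)mbeta-HLH was the highest in wild type, at 722 and 622 FPKM in WT-EB and 790 to 803 in WT-ISC. E(spl)m3-HLH, at 186 and 202 in WT-EB against 116 to 222 in WT-ISC, and klu overlapped between these groups. E(spl)m8-HLH was near the floor, at 0 in both WT-EB libraries and 0.819, 4.15 and 2.20 in WT-ISC. E(spl)malpha-BFM and E(spl)m7-HLH were also lower in both WT-EB libraries than in every WT-ISC library. Markers of other cell types moved with the groups. The summed FPKM of 12 enteroendocrine genes was 1401 to 2554 in WT-ISC and 166 to 2998 in SPEN-ISC, against 18.2 to 25.6 in WT-EB and 9.32 to 17.3 in SPEN-EB. The peptide hormone gene npf made up most of the WT-ISC sum, at 1246 to 2063 FPKM there against 15.5 and 22.9 in WT-EB. The defining marker pros was low but ran the same way, at 0.0229 to 0.284 FPKM in WT-ISC and 0 and 0.00196 in WT-EB. The summed FPKM of 10 enterocyte genes was 844.5 to 2800 in WT-ISC, 1891 to 4734 in SPEN-ISC, 229.8 to 304 in WT-EB and 2702 to 2883 in SPEN-EB, so WT-EB lay below every other group. The part of these cells in the members' values was not tested.

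The ligand Dl (FBgn0000463) lies on chromosome 3R from 15128453 to 15151935 on the minus strand of the BDGP5 assembly, the build of all positions here. In WT-ISC its FPKM was 0.172, 1.175 and 0.554 and in SPEN-ISC 1.05, 0.579 and 7.42. In WT-EB it was 0 and 0.0168, and in SPEN-EB 0.155, 0.00859 and 0.0959. Every ISC library was above every EB library, and SPEN-ISC replicate 3 stood far above the other ISC libraries. The exon bins of Dl held 24, 146 and 67 counts in WT-ISC, 135, 71 and 963 in SPEN-ISC, 0 and 2 in WT-EB and 18, 1 and 13 in SPEN-EB. At the depth of WT-EB replicate 1, a count of 0 allows a level of up to 0.0938 CPM (3 counts). Limits and intervals of this kind cover at most counting error and not the spread between libraries. They take the summed bin counts as independent, but a read that spans bins counts more than once, so they are too narrow.

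The ubiquitin ligase gene neur (FBgn0002932) lies on chromosome 3R from 4846068 to 4865189 on the minus strand. Its FPKM was 0.274, 2.08 and 1.124 in WT-ISC, 1.165, 0.774 and 4.53 in SPEN-ISC, 0.0701 and 0.246 in WT-EB and 0.506, 0.0842 and 0.255 in SPEN-EB. Every WT-ISC library was above both WT-EB libraries and every SPEN-ISC library was above every SPEN-EB library, whereas the wild-type and RNAi libraries of each cell type overlapped. Its bins held 38, 341 and 168 counts in WT-ISC, 166, 98 and 740 in SPEN-ISC, 16 and 38 in WT-EB and 101, 9 and 33 in SPEN-EB. Bin E004 (1742 of 4303 bases) lies opposite CR31429, a gene on the plus strand, and counts there cannot be assigned with certainty. The second ligase gene mib1 (FBgn0263601, chromosome 3L from 15999652 to 16004912, minus strand) was at 1.93, 8.77 and 11.96 FPKM in WT-ISC, 4.03, 4.404 and 7.24 in SPEN-ISC, 2.01 and 2.73 in WT-EB and 7.95, 4.88 and 4.73 in SPEN-EB. The range of WT-ISC took in every value of mib1 in the other groups, and SPEN-EB lay wholly above WT-EB. A bin of mib1 overlaps mRpS31 on the other strand.

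The receptor gene N (FBgn0004647) lies on chromosome X from 3028905 to 3066295 on the plus strand. Its FPKM was 0.160, 2.57 and 0.600 in WT-ISC, 0.729, 0.390 and 4.37 in SPEN-ISC, 0.0719 and 0.186 in WT-EB and 1.45, 0.178 and 0.447 in SPEN-EB. The groups overlapped in every comparison, and SPEN-ISC replicate 3, WT-ISC replicate 2 and SPEN-EB replicate 1 were the highest. The bins of N held 38, 612 and 138 counts in WT-ISC, 183, 94 and 1057 in SPEN-ISC, 18 and 46 in WT-EB and 347, 43 and 114 in SPEN-EB.

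Of the regulators of receptor trafficking, spdo (FBgn0260440, chromosome 3R from 26302406 to 26304571, plus strand) encodes a transmembrane protein that acts with N in the signal-receiving daughter of asymmetric divisions. Its FPKM was 0.651, 5.52 and 2.19 in WT-ISC, 5.94, 1.13 and 8.23 in SPEN-ISC, 0.206 and 0.169 in WT-EB and 0.587, 0.239 and 0.950 in SPEN-EB. As with Dl, every ISC library was above every EB library of the same genotype, and here SPEN-EB also lay wholly above WT-EB. Its bins held 33, 262 and 108 counts in WT-ISC, 293, 52 and 394 in SPEN-ISC, 11 and 8 in WT-EB and 28, 12 and 52 in SPEN-EB. The gene numb (FBgn0002973, chromosome 2L from 9437469 to 9464184, plus strand), an inhibitor of N that is inherited unequally in asymmetric divisions, was at 0.249, 2.53 and 0.938 FPKM in WT-ISC and 0.764, 0.649 and 3.06 in SPEN-ISC. It was at 0.114 and 0.359 in WT-EB and 1.89, 0.304 and 0.540 in SPEN-EB, and its groups overlapped in every comparison.

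Of the proteases, kuz (FBgn0259984, chromosome 2L from 13550141 to 13638238, plus strand) was at 0.0801, 0.455 and 0.177 FPKM in WT-ISC and 0.153, 0.556 and 1.12 in SPEN-ISC. It was at 0.0228 and 0.0859 in WT-EB and 1.43, 0.112 and 0.0820 in SPEN-EB, where replicate 1 stood far above the other EB libraries. Psn (FBgn0019947, chromosome 3L from 20425568 to 20428256, plus strand) was the member with the most even level, at 17.2, 17.7 and 21.3 FPKM in WT-ISC, 32.8, 18.5 and 25.8 in SPEN-ISC, 14.8 and 13.9 in WT-EB and 15.3, 18.2 and 26.2 in SPEN-EB. Both WT-EB libraries were below all others for Psn. A bin of Psn overlaps mRpL15 on the other strand.

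The nuclear members were low throughout. Su(H) (FBgn0004837, chromosome 2L from 15039496 to 15043335, plus strand) was at 0.0308, 0.484 and 0.186 FPKM in WT-ISC, 0.191, 0.220 and 1.07 in SPEN-ISC, 0.0146 and 0.0450 in WT-EB and 0.339, 0.0308 and 0.272 in SPEN-EB. Its bins held at most 76 counts, in SPEN-ISC replicate 3, and 1 and 3 counts in WT-EB. H (FBgn0001169, chromosome 3R from 16447665 to 16454637, plus strand) was at 0.0680, 0.467 and 0.205 FPKM in WT-ISC, 0.122, 0.154 and 0.578 in SPEN-ISC, 0.101 and 0.0368 in WT-EB and 0.318, 0.0529 and 0.0984 in SPEN-EB. For both genes the groups overlapped in every comparison, and SPEN-ISC replicate 3 and WT-ISC replicate 2 held the highest values of their groups. Of the 110 member values, 67 (60.9%) were under 1 FPKM, and 12 rested on fewer than 10 counts.

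**Figure D1:**
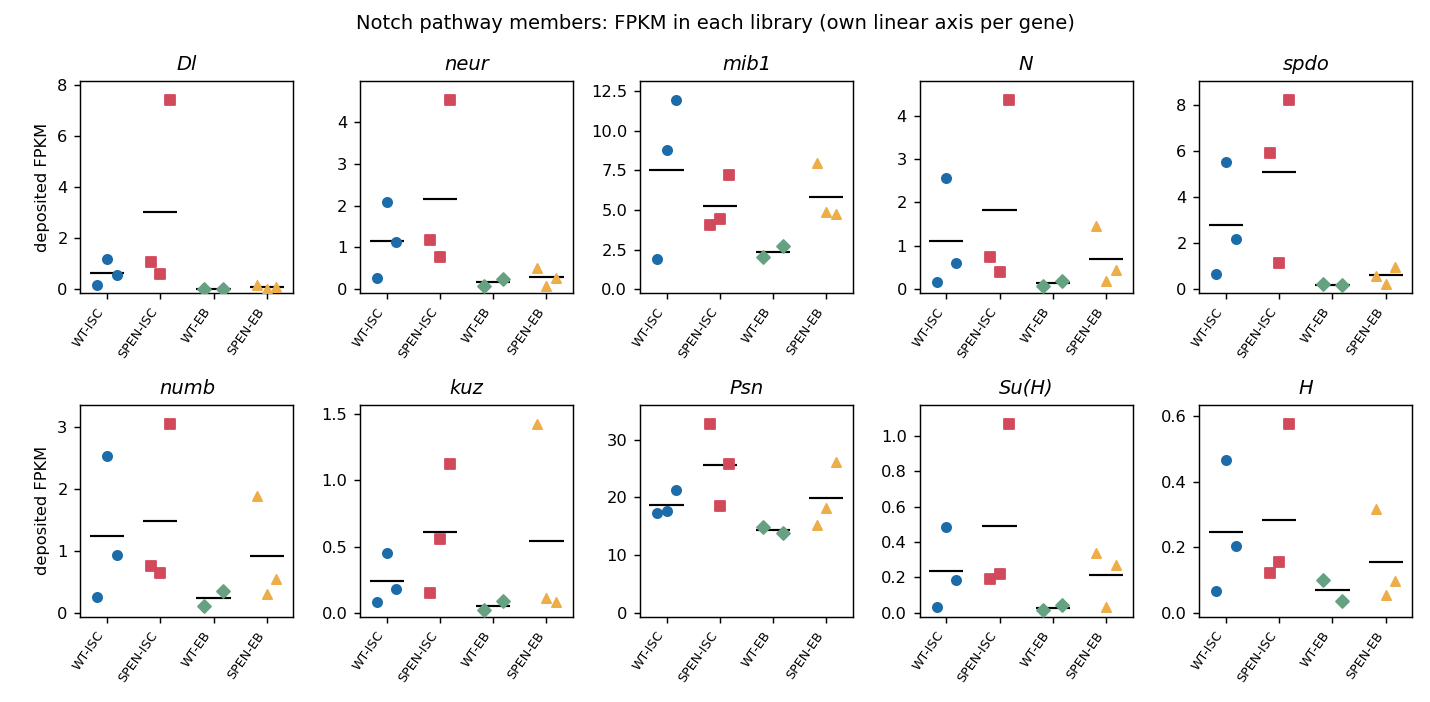
Deposited FPKM of each member in each of the 11 libraries, with a separate linear axis for each gene and the 4 groups along the horizontal axis. Each point is a library and each bar a group mean, and Dl runs from 0 in WT-EB replicate 1 to 7.42 in SPEN-ISC replicate 3.

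Psn and mib1 had the highest length-scaled levels in every group, and the order of the other members varied. Psn led with a mean FPKM of 18.8 ± 2.25 (SD, n = 3) in WT-ISC and 25.7 ± 7.13 (SD, n = 3) in SPEN-ISC. In the EB groups its mean was 14.4 ± 0.67 for WT-EB (SD, n = 2) and 19.9 ± 5.64 for SPEN-EB (SD, n = 3). Next came mib1, with mean FPKM of 7.55, 5.22, 2.37 and 5.85 in the same order. The libraries of Psn and mib1 did not overlap in any group. In the EB groups mib1 was also clear of the third member in the order, numb, at 0.237 in WT-EB and 0.912 in SPEN-EB. In the ISC groups mib1 overlapped the third, spdo, at 2.79 in WT-ISC and 5.10 in SPEN-ISC. Every further pair of neighbours overlapped in every group. Dl was at place 7 of 10 in WT-ISC (mean FPKM 0.634), 4 in SPEN-ISC (3.02) and 10 in both WT-EB (0.00837) and SPEN-EB (0.0864). Its mean in SPEN-ISC rests largely on replicate 3, at 7.42 FPKM against 1.05 and 0.579 in replicates 1 and 2.

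WT-ISC against WT-EB asked how the members differ between stem cells and Notch-active daughters in wild-type guts. Dl and spdo had the largest fitted differences on summed bin counts, followed by N, Su(H) and neur, all toward ISCs, and Psn, the most abundant member, was nearest to 0. For Dl, 237 counts in 3 WT-ISC libraries stood against 2 counts in 2 WT-EB libraries, a depth-scaled ratio of 85.1 (95% counting interval 23.3 to 706.5), and for spdo the ratio was 15.2 (9.62 to 25.6). None of the 10 members passed an adjusted p of 0.05 by edgeR on counts, where 1.36% of 8083 genes did, nor did any of the 4 members tested on FPKM by limma, where 2.45% of 6128 genes did. By DESeq2, Dl (adjusted p = 0.00176) and spdo (adjusted p = 0.00965) passed, beside 4.96% of all genes. At an unadjusted p of 0.05, 4 members (Dl, spdo, neur and N) passed in edgeR, all higher in WT-ISC, beside 12.1% of all genes.

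By edgeR's quasi-likelihood test the log2 difference of Dl was 5.38 (SE 1.14, adjusted p = 0.0530), a size that depends on the prior count because WT-EB held so few counts. That of spdo was 2.90 (SE 0.83, 95% interval 1.06 to 4.75, adjusted p = 0.133). N differed by 2.16 (SE 0.88, 0.20 to 4.12, adjusted p = 0.286) and neur by 1.93 (SE 0.76, 0.25 to 3.61, adjusted p = 0.269). The other members lay between -0.31 (Psn, SE 0.42) and 2.11 (Su(H), SE 1.06), with adjusted p by edgeR of 0.346 to 0.685. All libraries of WT-ISC were above both of WT-EB in CPM for 5 of 10 members (Dl, neur, spdo, kuz and Psn), beside 43% of all genes on the same measure. The 4 members without overlap in FPKM, which are the same but for kuz, stand beside 38.5%. For Psn the sign follows the scaling, since its fitted FPKM difference by limma was -0.34 (SE 0.37) as scaled and 0.37 unscaled. Without WT-ISC replicate 1, the library of its group with the lowest long gene share, N (2.55, adjusted p = 0.0363), Dl (5.64, 0.00958), neur (2.27, 0.0258) and spdo (3.23, 0.0154) passed in edgeR, as did 20.9% of all genes. Dl also passed in edgeR without WT-ISC replicate 2 (4.85, adjusted p = 0.00168, beside 4.07% of all genes) or replicate 3 (5.47, adjusted p = 0.0334, beside 2.65%). On FPKM without WT-ISC replicate 1, neur (1.19, adjusted p = 0.0294), mib1 (1.05, 0.0443) and spdo (1.98, 0.00680) passed in limma, as did 22.5% of all genes. With the long gene share as a covariate, the fitted difference of N was -0.16 and that of numb -0.36. In sorted pools of cells, fewer cells of a type and less RNA per cell cannot be told apart.

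**Figure D2:**
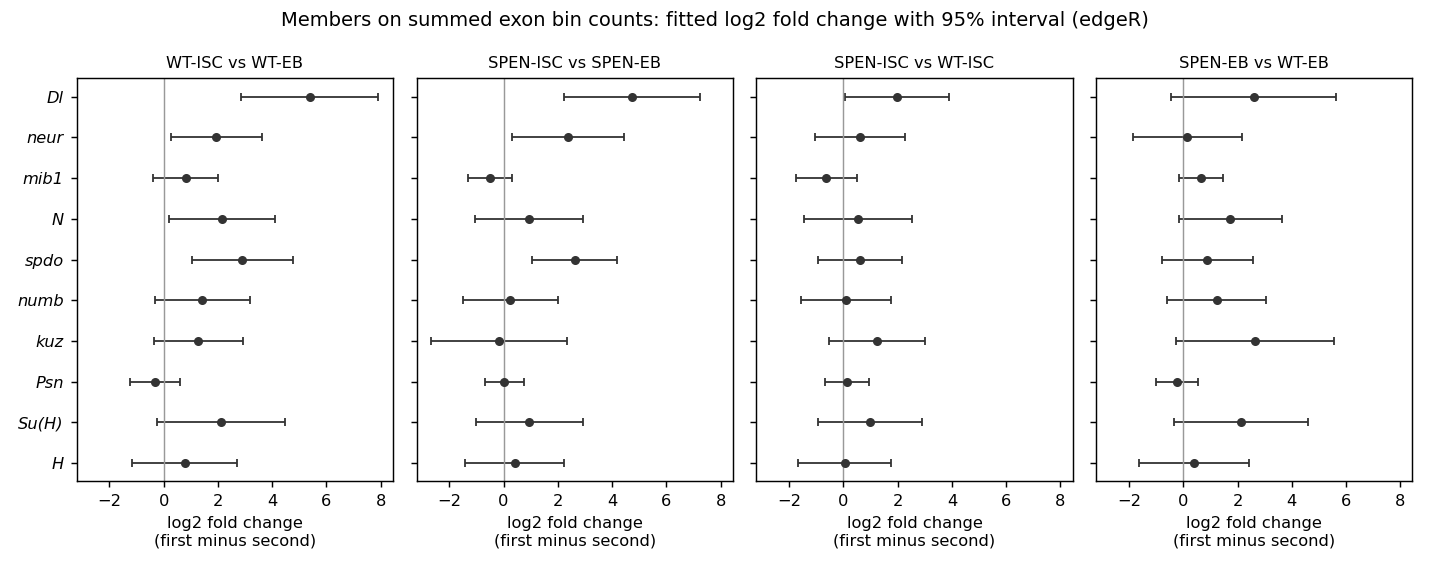
Fitted log2 fold change of each member on summed exon bin counts (horizontal axis, first group minus second) in each comparison, with points for the edgeR estimate and lines for its 95% interval. Dl has the largest estimate in the ISC against EB comparisons (5.38 and 4.74), and most other intervals include 0.

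SPEN-ISC against WT-ISC asked which members differ when spen RNAi is expressed in stem cells. Dl had the largest difference, with 1169 counts in the 3 libraries labelled SPEN-ISC against 237 in WT-ISC, a ratio of 4.94 (counting interval 4.29 to 5.70), but 963 of the 1169 came from replicate 3. The libraries of the groups overlapped for every member, Dl included. No member passed the adjusted threshold by edgeR (10 tested), by DESeq2, by limma voom or by limma on FPKM (5 tested). Over all genes 0% of 8183 passed by edgeR and 0.0471% of 6371 by limma on FPKM. At an unadjusted p of 0.05, Dl alone among the members passed in edgeR, higher in SPEN-ISC, beside 1.82% of all genes. No member's libraries were separate, in FPKM or in CPM, where 5.93% and 5.89% of all genes were higher in every SPEN-ISC library.

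By edgeR the log2 difference of Dl was 1.98 (SE 0.85, 95% interval 0.07 to 3.88, adjusted p = 0.9998), and by limma on FPKM it was 1.00 (SE 0.63, adjusted p = 0.9995). The intervals of N (0.53, -1.47 to 2.53) and neur (0.62, -1.03 to 2.28) leave room for differences of a few fold in either direction, and that of mib1 (-0.63, -1.74 to 0.49) mainly for a lower level in SPEN-ISC. The remaining members were between 0.04 (H, SE 0.76) and 1.24 (kuz, SE 0.79), all with an adjusted p by edgeR of 0.9998. Without SPEN-ISC replicate 3 the estimate of Dl was 0.36, that of N was -0.86, that of neur -0.44, that of numb -0.69 and that of H -0.73 by edgeR. Leaving out WT-ISC replicate 1 gave -0.31 for numb and -0.30 for H. The counts outside bin E014 give no measure of how far spen was depleted in the libraries labelled SPEN-ISC.

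SPEN-EB against WT-EB posed the same question in enteroblasts. Estimates of 9 of 10 members were above 0, as were 59.2% of all genes, led by kuz, Dl, Su(H) and N. Most kuz counts of SPEN-EB (219 of 252) came from replicate 1. No member passed by edgeR (10 tested, beside 0.977% of 7881 genes) or by limma on FPKM (2 tested, beside 3.18% of 5974 genes), and none did by DESeq2 or limma voom. In edgeR 0 members had an unadjusted p under 0.05, beside 20.1% of all genes. In DESeq2 N and kuz did, but the share of all genes was not computed there, so nothing is drawn from it. In CPM the libraries labelled SPEN-EB lay wholly above WT-EB for mib1, spdo, kuz and Psn, beside 51.1% of all genes, and in FPKM for the same genes without kuz, beside 48.5%.

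The log2 difference by edgeR was 2.65 for kuz (SE 1.28, adjusted p = 0.282), 1.73 for N (SE 0.84, 95% interval -0.17 to 3.64, adjusted p = 0.282) and 0.65 for mib1 (SE 0.36, adjusted p = 0.324). For Dl, 32 counts in 3 libraries stood against 2 in 2 libraries, a ratio of 11.3 with a counting interval of 2.87 to 97.0. The ligase neur was nearest to 0, at 0.15 (SE 0.89, -1.85 to 2.15), and its sign turned without WT-EB replicate 1 (-0.24) or SPEN-EB replicate 1 (-1.08). Without SPEN-EB replicate 1, kuz was at 0.41 and N at 0.59. For Psn the fitted FPKM difference by limma was -0.28 (SE 0.32) as scaled and 0.42 unscaled. Whether the effect of spen RNAi differed between EBs and ISCs was tested as an interaction, and no member had an unadjusted p under 0.05 there by edgeR or limma, with 0% of 8648 and 0% of 7027 genes called (223 and 124 at an unadjusted p of 0.05). The member with the smallest p was mib1, at 1.199 (SE 0.67, adjusted p = 0.944 by edgeR), with a lower estimate in ISCs and a higher estimate in EBs. The interaction of Dl was 0.55 (SE 1.66).

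SPEN-ISC against SPEN-EB compared the cell types under RNAi. Dl and spdo had the largest estimates, as in wild-type guts, and neur came next, all toward ISCs. Their values above show SPEN-ISC wholly above SPEN-EB in FPKM. These 3 of 10 members stand beside 8.58% of all genes, and in CPM Dl and spdo alone were separate, beside 8.95%. Dl held 1169 counts against 32, a ratio of 37.3 (counting interval 26.3 to 54.8), spdo a ratio of 8.20 (6.60 to 10.3) and neur 7.17 (6.01 to 8.60). No member passed by edgeR (0.248% of 8052 genes did), by limma voom or by limma on FPKM (3 tested, 0.675% of 6225 genes called), whereas Dl and spdo passed by DESeq2, beside 2.37% of all genes. At an unadjusted p of 0.05, the members Dl, spdo and neur passed in edgeR, all higher in SPEN-ISC, beside 4.28% of all genes.

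By edgeR the log2 difference of Dl was 4.74 (SE 1.098, 95% interval 2.25 to 7.24, adjusted p = 0.173). That of spdo was 2.62 (SE 0.69, 1.06 to 4.17, adjusted p = 0.227) and that of neur 2.38 (SE 0.90, 0.33 to 4.43, adjusted p = 0.582). N stood at 0.94 (SE 0.88) and the others between -0.50 (mib1) and 0.94 (Su(H)), all with an adjusted p by edgeR of 0.9998. Without SPEN-ISC replicate 3 the estimates by edgeR were 3.16 for Dl, 1.35 for neur and -0.43 for N. Each group enters 2 of the 4 comparisons, so the values of the comparisons are set side by side and are not independent of each other.

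The members' levels moved from library to library with the share of counts in long genes. The summed level of 8 members, all but Psn and mib1, was 6.22, 63.1 and 22.3 CPM in WT-ISC and 29.7, 17.6 and 135.9 in SPEN-ISC. It was 2.66 and 4.91 in WT-EB and 35.4, 4.35 and 10.3 in SPEN-EB. The long gene share in the same libraries was 1.61, 5.81 and 3.47% in WT-ISC, 3.68, 2.75 and 7.36% in SPEN-ISC, 1.45 and 1.63% in WT-EB and 5.61, 2.36 and 3.71% in SPEN-EB. The order of libraries was the same on both measures in 4 of 4 groups, and Pearson's r of the log2 values was 0.933 over the 11 libraries, given as a description since both measures are shares of the same counts and 6 of the 8 members summed have at least 3000 bin bases themselves. In the library with the most long gene counts, the highest CPM of the group was found for 8 of 10 members in WT-ISC (replicate 2), 9 in SPEN-ISC (replicate 3), 7 in WT-EB (replicate 3) and 8 in SPEN-EB (replicate 1). The share of all genes highest in these libraries was not computed, so these counts are not read as a trait of the members. Psn, with 2048 bin bases, was an exception in all 4 groups. The other exceptions were mib1 (4095 bin bases) in WT-ISC, spdo (2087) in both EB groups and H (5999) in WT-EB. Su(H), with 2943 bin bases, was an exception in no group, so the exceptions were not sorted by length. Coverage along genes also differed, as a median log2 ratio of counts in the last to the first 1000 bin bases of 597 long genes. It was 0.685, 0.298 and 0.287 in WT-ISC and 0.6145, 0.721 and 0.152 in SPEN-ISC. In WT-EB it was 0.307 and 0.428, and in SPEN-EB 0.109, 0.478 and 0.803. The part of coverage in the members' values was not tested. The part of variation with the long gene share in the group differences was not tested beyond other scaling and the share as a covariate.

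**Figure D3:**
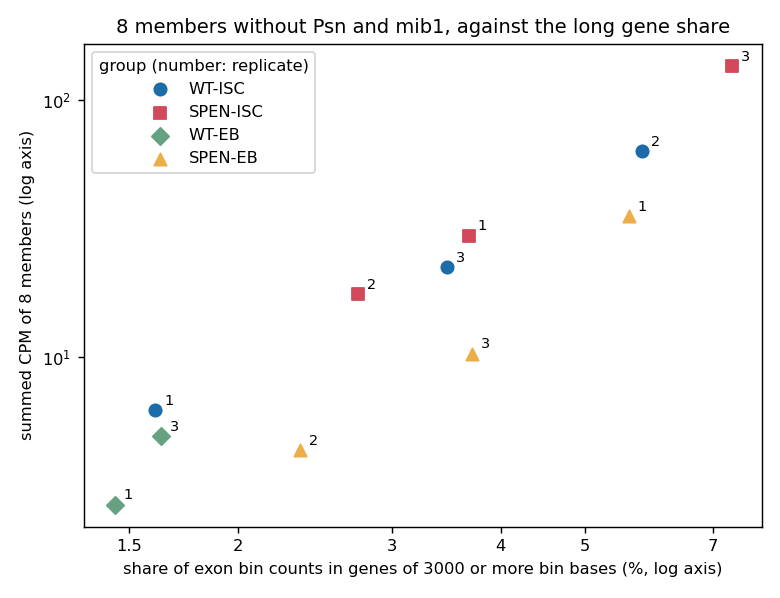
Summed CPM of 8 members (vertical, log axis) against the share of exon bin counts in genes with at least 3000 bin bases (horizontal, %, log axis), 1 point per library, marked by group and replicate number. The member sum runs from 2.66 CPM at a share of 1.45% to 135.9 CPM at 7.36%.

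Since N, Dl and neur shared this variation, levels were also set against N within each library as ratios of counts per bin base. This ratio was chosen after the values had been seen and is described with no test. Dl over N was 1.22, 0.461 and 0.938 in WT-ISC and 1.43, 1.46 and 1.76 in the libraries labelled SPEN-ISC. It was 0 and 0.0840 in WT-EB and 0.1002, 0.0449 and 0.220 in SPEN-EB. All 3 SPEN-ISC libraries were above all 3 of WT-ISC (means 1.55 ± 0.18 and 0.873 ± 0.384, SD, n = 3 each), which was so for 0.183% of 8182 genes set against N in the same way. The Dl to N ratio of either ISC group was above that of the matching EB group, beside 2.38% of genes for WT-ISC over WT-EB and 0.77% for SPEN-ISC over SPEN-EB. When N was counted without its last 2 bins, the ratio was 3.54, 0.558 and 1.39 in WT-ISC and 2.92, 3.29 and 2.15 in SPEN-ISC, and these groups overlapped. With FPKM in place of counts per bin base they stayed separate. The remaining alternatives each left out a library, which cannot make separate groups overlap.

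The ratio of neur to N was 2.37, 1.32 and 2.88 in WT-ISC, 2.15, 2.47 and 1.66 in SPEN-ISC, 2.11 and 1.96 in WT-EB and 0.689, 0.496 and 0.685 in SPEN-EB. The libraries labelled SPEN-EB were below those of every other group. Their mean of 0.623 ± 0.111 (SD, n = 3) stood below 2.03 ± 0.11 in WT-EB (SD, n = 2), as did the ratios of 27.3% of genes in this comparison, so the separation is not particular to neur. Some of these ratios rest on few counts, 16 of neur and 18 of N in WT-EB replicate 1 and 9 and 43 in SPEN-EB replicate 2. Their counting error was not computed, and the small SDs do not show it to be small. Against SPEN-ISC (2.09 ± 0.41, SD, n = 3) the gap was shared by 0.77% of genes. Both gaps held on FPKM, with N counted without its last 2 bins, and for neur without the bin opposite CR31429. The separation of SPEN-EB from WT-ISC did not hold with N counted without its last 2 bins. There WT-ISC replicate 2 was at 1.60 and SPEN-EB replicate 3 at 1.77. The remaining alternatives for neur each left out a library, which cannot close a gap between separate groups. Of the other members only numb had separate groups, being lower relative to N in WT-ISC (1.35 ± 0.34, SD, n = 3) and in SPEN-EB (1.38 ± 0.19, SD, n = 3) than in WT-EB (1.90 ± 0.08, SD, n = 2), where 27.1% and 27.3% of genes were.

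**Figure D4:**
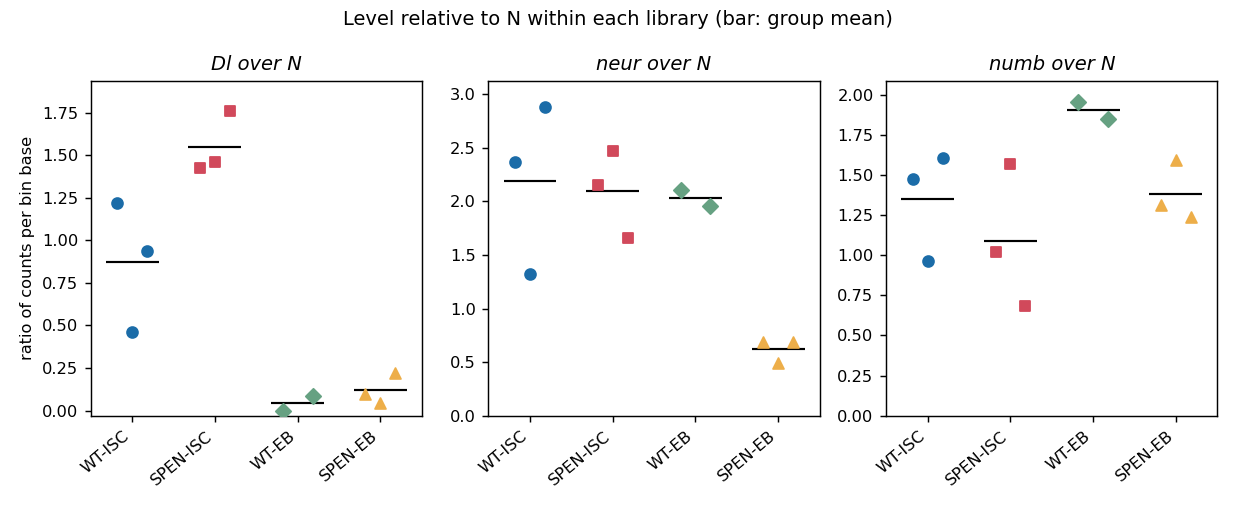
Counts per bin base of Dl (left), neur (middle) and numb (right), divided by those of N in each library (vertical axis, ratio), by group. Points are libraries and bars are group means. Dl over N lies between 1.43 and 1.76 in SPEN-ISC and between 0.461 and 1.22 in WT-ISC, and neur over N lies between 0.496 and 0.689 in SPEN-EB.

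Exon bins were compared to see whether parts of a member's transcript differed from the rest between groups. Of the 83 member bins, 31 could be tested for WT-ISC against WT-EB, 34 for SPEN-ISC against WT-ISC and 23 for SPEN-EB against WT-EB. These bins came from 8, 9 and 6 members. No bin of kuz could be tested, none of Su(H) in the comparisons with WT-EB, and none of Dl or H for SPEN-EB against WT-EB. For WT-ISC against WT-EB the Dl bins stood against 2 counts in WT-EB. None of the tested bins passed with limma on the log2 ratio of a bin to the rest of its gene, where 0.0144%, 0.0241% and 0.0866% of all bins did. Only a bin of mib1 had an unadjusted p under 0.05, in SPEN-EB against WT-EB (log2 difference -0.67, SE 0.29, adjusted p = 0.774). The largest Dl bin, E003 (chromosome 3R from 15130185 to 15132311, 466 counts over all libraries), differed by 0.37 (SE 0.44, adjusted p = 0.9998 by limma) between SPEN-ISC and WT-ISC.

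The bins of N differed between libraries rather than between groups. Bin E006 (chromosome X from 3057512 to 3063660) held 45.2% of N counts and the last 2 bins, E009 and E010, hold 1628 of 10189 bin bases (16.0%). The last 2 bins took 71.1% (exact 95% interval 54.1 to 84.6), 30.6% and 43.5% of N counts in WT-ISC, and 59.0%, 62.8% and 31.3% in SPEN-ISC. They took 55.6% and 43.5% in WT-EB and 22.2%, 58.1% and 67.5% (58.1 to 76.0) in SPEN-EB. The lowest shares were those of the libraries with the most long gene counts, WT-ISC replicate 2, SPEN-ISC replicate 3 and SPEN-EB replicate 1, and the groups overlapped. A read that spans several bins counts in each of them, so the bins are not independent.

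**Figure D5:**
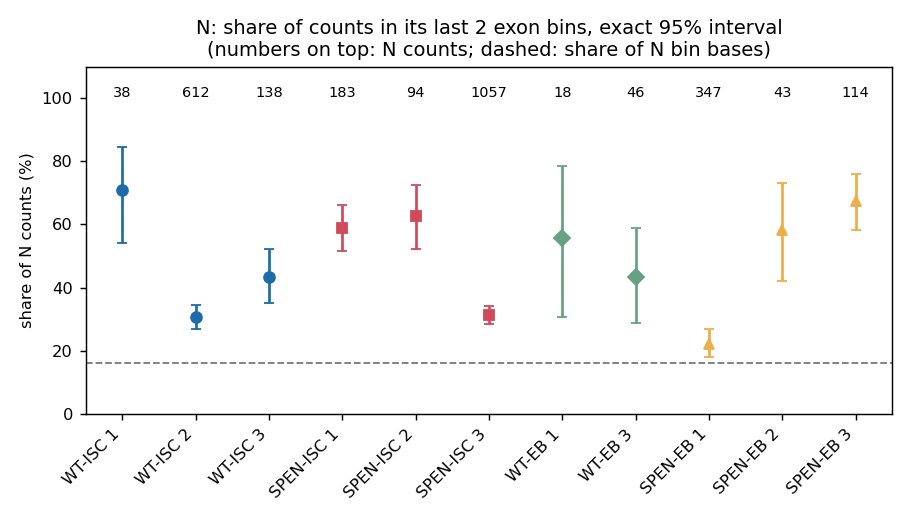
Share of N counts in its last 2 exon bins (vertical axis, %) in each of the 11 libraries, with points for the share, lines for the exact 95% interval, and the number of N counts above each. The shares run from 22.2% in SPEN-EB replicate 1 to 71.1% in WT-ISC replicate 1, all above the dashed line at 16.0%, the share of N bin bases.

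Around the 10 members, a list of 48 further Notch pathway genes (ligand endocytosis, receptor glycosylation, trafficking, proteolysis and nuclear cofactors) was examined, of which 47 were in the table. Of the 41 or 42 tested on counts in each comparison, 0 passed by edgeR in either direction. At an unadjusted p of 0.05, 7 did for WT-ISC against WT-EB, 0 for SPEN-ISC against WT-ISC, 7 for SPEN-EB against WT-EB and 1 for SPEN-ISC against SPEN-EB, beside 15.8%, 3.45%, 20.1% and 6.66% of all genes, so the list's shares were near or below those of all genes. The median log2 difference of the 10 members was 1.68 for WT-ISC against WT-EB, that of the list 1.04 and that of all genes 0.24. For SPEN-ISC against WT-ISC the medians were 0.57, -0.06 and 0.03, and for SPEN-EB against WT-EB 1.05, 0.82 and 0.24. The smallest adjusted p of the list by limma on FPKM was that of fng, a glycosyltransferase that modifies N, at 9.36 FPKM on average in SPEN-EB and 1.40 in WT-EB (log2 difference 1.58, SE 0.39, adjusted p = 0.0519). On counts fng differed by 2.08 (SE 0.49, adjusted p = 0.0857 by edgeR).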

How the data were processed

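RNA of the sorted cells was made into stranded libraries and sequenced in paired reads of 100 bases; the labels call the replicates biological. The authors aligned the reads with TopHat2 2.0.6 to BDGP5, counted them per gene and per exon bin, and tested genes with DESeq2 1.12.2. The deposited gene table holds FPKM (fragments scaled to exon length and library depth), and the deposited exon table holds raw read counts for 75196 exon bins. Columns of the authors' own comparisons (fold changes and p-values) were left out, with 16 repeated per-sample columns and 8 of means.

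In R 4.3.3, limma 3.58.1 with statmod 1.5.0 was run on log2(FPKM + 0.5), a scale that understates differences of low genes. Libraries were first brought to a common scale by trimmed means of their log ratios (30% of ratios and 5% of levels trimmed). A gene had to reach 1 FPKM in a number of libraries equal to the size of the smaller group. Because most members were under 1 FPKM, exon bin counts were summed per gene and tested with edgeR 4.0.16 (quasi-likelihood test, TMM scaling), with a minimum of 10 counts by the same rule and of 15 in all. Summed bins count a read that spans bins more than once. For bin usage, limma was run on a bin's log2 ratio to the other bins of its gene (offset 0.5). Only the libraries of the groups compared entered a fit, apart from the interaction, and p-values were adjusted by Benjamini-Hochberg over all features, with a threshold of 0.05. They measure the spread between these libraries. Counting intervals are exact 95% binomial intervals that take the bin counts as independent. Reads counted more than once make them too narrow. All 10 members were named whatever their values, with the pathway genes of smallest adjusted p and the 3 genes most correlated with a member. The members and lists were chosen with earlier results of these data known.

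Alternatives were other pseudocounts, no filter, no scaling, DESeq2 1.42.0, its size factors, limma voom, limma diffSplice, a higher bin minimum, all groups in 1 fit, the replicate number as a block, and each library left out. Scaling on genes with at least 3000 exon bases, their share of counts as a covariate, and the ratios to N were added after the data had been seen. Values were handled in Python 3.11.15 with pandas 2.3.3, scipy 1.17.1 and matplotlib 3.10.9.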

Additional observations from a re-analysis of the deposited data

How the results depend on the processing

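Of 612 values of 46 member results under alternatives, 534 kept their direction and their side of the threshold, 22 passed under the alternative alone and 56 had the opposite sign. The adjusted p of Dl in WT-ISC against WT-EB ran from 0.000123 to 0.600 over 13 alternatives and passed under 8. In SPEN-ISC against SPEN-EB it ran from 7.78e-06 to 0.474 and passed under 3 of 14. Without scaling, the median FPKM difference of all genes shifted by 0.63 in both comparisons with WT-EB and by 0.25 in SPEN-ISC against WT-ISC, and scaling on long genes shifted that of counts by -0.64, -0.63 and -0.12. Depth limits the 12 member values that rest on fewer than 10 counts. Where a value moved, the cause was not tested.

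Counts of genes called moved as follows. For WT-ISC against WT-EB, 150 genes on FPKM became 9 without a filter, 97 without scaling and 93 with the long gene covariate, and 110 on counts became 401 by DESeq2, 287 without a filter and 191 scaled on long genes. For SPEN-ISC against WT-ISC, 3 on FPKM became 0 with log2(FPKM + 1) or without a filter, 16 with all 4 groups, 14 scaled on long genes and 5 with the covariate, and 0 on counts became 55 by DESeq2, 10 by limma voom, 14 without a filter, 6 with all groups and 9 scaled on long genes. For SPEN-EB against WT-EB, 190 on FPKM became 34 without a filter, 967 without scaling, 46 with all groups and 15 with the covariate, and 77 on counts became 502 by DESeq2, 449 without a filter, 10 with all groups and 130 scaled on long genes. For SPEN-ISC against SPEN-EB, 42 on FPKM became 2 without a filter, 71 without scaling and 72 with all groups, and 20 on counts became 191 by DESeq2, 13 by limma voom, 57 without a filter, 76 with all groups and 43 scaled on long genes. The interaction gave 1 gene by DESeq2 and 1 on FPKM with the covariate. Bins called became 1 in each comparison by limma diffSplice and 2 in WT-ISC against WT-EB with at least 30 counts. Leaving out 1 library gave 82 to 1367 genes on FPKM and 3 to 1662 on counts for WT-ISC against WT-EB, 0 to 14 and 0 to 1 for SPEN-ISC against WT-ISC, 121 to 451 and 2 to 334 for SPEN-EB against WT-EB, 15 to 40 and 4 to 29 for SPEN-ISC against SPEN-EB, and 0 to 1 on counts for the interaction. Bins called ran from 1 to 223, 4 to 13 and 12 to 124.

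Whether replicate numbers pair the libraries is not known. Deviations of same-numbered libraries from their group means correlated at 0.269, -0.335 and 0.110 in SPEN-ISC against WT-ISC. The values were -0.590, 0.531 and -0.141 in SPEN-ISC against SPEN-EB. In the comparisons with WT-EB they were 0.161 and 0.0586 for WT-ISC and -0.0273 and 0.0743 for SPEN-EB. With so few libraries per group, these values cannot show whether libraries were paired. With the replicate block, 259 genes on FPKM and 413 on counts were called for WT-ISC against WT-EB, 1147 and 688 for SPEN-EB against WT-EB, 2 and 3 for SPEN-ISC against SPEN-EB, and 35 and 267 bins in the comparisons with WT-EB.

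Log2 differences of members that turned sign were these. In WT-ISC against WT-EB, Psn was 0.37 unscaled and 0.11 with the covariate, which also gave mib1 -0.19, N -0.16, numb -0.36, Su(H) -0.038 and H -0.47, and H was -0.15 scaled on long genes. In SPEN-ISC against WT-ISC, Psn was -0.0075 and H -0.044 scaled on long genes, H was -0.063 by limma voom and -0.0060 with the block, and the covariate gave N -0.15, numb -0.28 and H -0.33. In SPEN-EB against WT-EB, Psn was 0.42 unscaled and 0.29 with the covariate. Scaling on long genes gave mib1 -0.10, neur -0.85 and H -0.52. Also, neur was -0.011 with DESeq2 size factors, -0.012 by DESeq2 and -0.32 by limma voom. The covariate gave neur -3.61, H -1.58, N -1.39, Dl -1.07, numb -1.56, kuz -1.14 and Su(H) -1.11. In SPEN-ISC against SPEN-EB, kuz was 0.49 by limma voom, 1.03 with the block, 0.13 scaled on long genes and 0.10 with the covariate. Leaving out 1 library gave H -0.014 to 2.00 in WT-ISC against WT-EB, and in SPEN-ISC against WT-ISC it gave Psn on FPKM -0.10 to 0.34, neur on FPKM -0.065 to 0.70, numb -0.69 to 0.87, H -0.73 to 0.61, N -0.86 to 1.79 and neur -0.44 to 1.21. It gave neur -1.08 to 0.65 and H -0.54 to 1.68 in SPEN-EB against WT-EB, and Psn on FPKM -0.11 to 0.18, kuz -0.65 to 2.07, N -0.43 to 2.08, numb -0.49 to 1.36 and H -0.33 to 1.36 in SPEN-ISC against SPEN-EB. The mean neur to N ratio of SPEN-ISC minus that of WT-ISC was 0.0753 on FPKM and 0.0363 without bin E004, and -0.534 to 0.248 with a library left out. That of WT-ISC minus WT-EB ran from -0.187 to 0.595.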

Other observations

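Across the 11 libraries, the genes whose log2 CPM followed a member most closely among 5947 genes compared were jigr1 (r = 0.974), CG8965 (0.973) and sti (0.969) for Dl. For neur they were CG9795 (0.976), jumu (0.970) and CG32428 (0.963). For spdo they were scra (0.987), msb1l (0.985) and Mcm6 (0.984), of which Mcm6 encodes a subunit of the replicative helicase, and for N they were tws (0.994), emb (0.993) and CG2926 (0.992). Between members, r was 0.989 for N and numb, 0.946 for Dl and spdo and 0.943 for Dl and neur, and it was lowest for kuz and Psn, at 0.180. These values are descriptions. The libraries share group, depth and long gene share, and no p is given.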
